A study of Drosophila melanogaster with 11 samples.

Results

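The 8 small heat shock protein genes described here were Hsp22, Hsp23, Hsp26, Hsp27, Hsp67Ba, Hsp67Bb, Hsp67Bc and l(2)efl, taken by gene symbol from tables that list 15603 Drosophila genes. All 8 were found in each of the 3 tables, which together hold 11 libraries, 1 for each condition. The thorax table compares adult female thoraces in which the tubulinGeneSwitch driver was crossed to UAS-dOTC, to ND75 RNAi or to w1118 as the control. All 3 crosses were fed RU486, the drug that switches a GeneSwitch driver on, for 24 hr from day 7 of adult life. ΔOTC (written dOTC in the sample labels) is a form of ornithine transcarbamylase that misfolds in the mitochondrial matrix, and ND75 encodes a subunit of respiratory complex I. The larval table covers fat body of L3 larvae and the adult table covers fat body of adults aged 7 days. Both hold PGAM5 null animals (the driver and UAS-dOTC in a PGAM5 null background) and WT animals (DaGeneSwitch crossed to UAS-dOTC), each with RU486 and with none. The adults of the fat body table had received RU486 as larvae only. PGAM5 is a mitochondrial phosphatase. Each sample pooled 15 animals, both GeneSwitch drivers are ubiquitous, and the study's legend names the daughterless driver for the thorax where the labels name the tubulin one. No library without UAS-dOTC received RU486 in the fat body tables, so the drug and ΔOTC cannot be told apart there, and the thorax control is a different cross from both stressed groups.

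Small heat shock proteins are chaperones built on an α-crystallin domain, which bind unfolding proteins without ATP and hold them until the Hsp70 machinery refolds them or they are degraded. In Drosophila most of them lie together in the 67B cluster on chromosome arm 3L, where heat shock factor drives them under heat and the steroid hormone ecdysone drives several of them in late larvae and pupae. Hsp22 works in the mitochondrial matrix, Hsp23 and Hsp26 in the cytosol and Hsp27 in the nucleus, while Hsp67Bc acts in autophagy with the co-chaperone Starvin. The gene l(2)efl, an αB-crystallin-like gene of muscle on arm 2R, is a known target of the transcription factor FoxO. Hsp67Bb is the exception by sequence: it lies in the cluster and shares a dicistronic transcript with Hsp22, but encodes a rhodanese-like protein.

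Expression was given as FPKM, that is fragment numbers scaled to transcript length and library depth. The steps between low FPKM values put between 3.02e+06 and 8.86e+06 fragments behind a library. From these, ratios of 2 libraries carry a 95% exact conditional binomial interval, which covers counting error only. With 1 library for each condition there is no measure of the spread between animals or dissections, so no test was run and no p-value is given. ND75 itself was listed at 53.8 FPKM with ND75 RNAi, against 572 FPKM in the thorax control. Pgam5 lay at 0 to 0.841 FPKM in the 4 PGAM5 null fat body libraries, against 10.1 to 16.8 FPKM in the 4 WT libraries. The larval serum protein gene Lsp2 lay at 37072 to 47148 FPKM in the larval table and at 6.35 to 27.1 FPKM in the adult table, while the yolk protein gene Yp1 lay at up to 0.243 FPKM in larvae and at 25125 to 41899 FPKM in adults. The stage of each fat body table is that of its sheet name, since the adult sheet carries a larval heading inside it. The flight muscle myosin gene Mhc stood at 603 to 2194 FPKM in the thorax. Several fat body libraries also held transcripts of other tissues, and those values are given beside the results they moved with. In such bulk samples more cells of a type and more RNA per cell cannot be told apart.

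The levels of the members spanned orders of magnitude. Values of different tables are set side by side here and compared only within a table. The summed FPKM of the 8 members was 192 to 1901 in adult fat body, 386 to 4665 in larval fat body and 363 to 687 in thorax. In the thorax l(2)efl made up 56.6% to 78.6% of that sum, in larval fat body Hsp23 made up 30.7% to 79.4%, and in adult fat body the leading member was l(2)efl in both PGAM5 null libraries and Hsp26 in both WT libraries.

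Hsp22, the mitochondrial member, was the second most abundant member of the thorax. It stood at 109 FPKM with ΔOTC, 49.9 FPKM with ND75 RNAi and 169.9 FPKM in the control thorax. Larval fat body held 8.97 FPKM in PGAM5 null larvae with RU486, 8.90 FPKM in PGAM5 null larvae without it, 9.57 FPKM in WT larvae with RU486 and 21.8 FPKM in WT larvae without it. Only the WT library without RU486 stood apart, as the other 3 larval values lay within 1 FPKM of each other. Adult fat body held 16.4 FPKM in PGAM5 null flies with RU486, 45.9 FPKM in PGAM5 null flies without it, 331 FPKM in WT flies with RU486 and 29.7 FPKM in WT flies without it. The WT library with RU486 stood far above the other 3 adult libraries. Its transcript partner Hsp67Bb followed another course, at 26.2, 22.6, 22.6 and 27.4 FPKM in larvae in the same order of libraries. In adults Hsp67Bb was at 0 in PGAM5 null flies with RU486, at 1.87 FPKM in PGAM5 null flies without it, at 14.2 FPKM in WT flies with RU486 and at 8.63 FPKM in WT flies without it. In the thorax it was at 0 with ΔOTC, against 0.784 FPKM with ND75 RNAi and 0.197 FPKM in the control (here 0 means a listed value under 0.001 FPKM).

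Hsp23 and Hsp26, the cytosolic members, had their highest listed values in fat body. Hsp23 reached 119 FPKM in PGAM5 null larvae with RU486 and 3704 FPKM in PGAM5 null larvae without it. In WT larvae it stood at 261 FPKM with RU486 and 2170.0 FPKM without it. Both larval libraries without the drug were thus far above both with it. In adults Hsp23 was at 6.52 FPKM in PGAM5 null flies with RU486, 11.3 FPKM in PGAM5 null flies without it, 171 FPKM in WT flies with RU486 and 57.3 FPKM in WT flies without it, so both WT libraries were above both PGAM5 null libraries. The thorax held 10.9 FPKM with ΔOTC, 6.44 FPKM with ND75 RNAi and 6.62 FPKM in the control.

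Hsp26 stood at 87.7 FPKM in PGAM5 null larvae with RU486, 196 FPKM in PGAM5 null larvae without it, 50.3 FPKM in WT larvae with RU486 and 228 FPKM in WT larvae without it. Both larval libraries without RU486 were again above both with it, over a narrower range than for Hsp23. Adult fat body held 44.6 FPKM in PGAM5 null flies with RU486, 83.0 FPKM in PGAM5 null flies without it, 1021 FPKM in WT flies with RU486 and 100.5 FPKM in WT flies without it. That WT library with RU486 was again the one that stood apart. In the thorax the gene was low, at 19.5 FPKM with ΔOTC, 15.9 FPKM with ND75 RNAi and 35.2 FPKM in the control.

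Hsp27, the nuclear member, was low in thorax, at 3.81 FPKM with ΔOTC, 2.20 FPKM with ND75 RNAi and 4.31 FPKM in the control, which is about 7 to 25 fragments. Larval fat body held 93.9 FPKM in PGAM5 null larvae with RU486, 605 FPKM in PGAM5 null larvae without it, 116 FPKM in WT larvae with RU486 and 531 FPKM in WT larvae without it. Both libraries without RU486 were higher, as for Hsp23 and Hsp26. In adults the gene stood at 19.8 FPKM in PGAM5 null flies with RU486, 25.9 FPKM in PGAM5 null flies without it, 283 FPKM in WT flies with RU486 and 12.1 FPKM in WT flies without it, and the WT library with RU486 was the high one.

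Hsp67Bc, the autophagy member, had its highest listed values in larvae without RU486. It stood at 2.87 FPKM in PGAM5 null larvae with RU486, 36.5 FPKM in PGAM5 null larvae without it, 4.88 FPKM in WT larvae with RU486 and 48.6 FPKM in WT larvae without it. Adult values were 0.400 FPKM in PGAM5 null flies with RU486, 0 in PGAM5 null flies without it, 7.33 FPKM in WT flies with RU486 and 0.757 FPKM in WT flies without it. The adult value at 0 is a count of 0 fragments, which at that depth allows up to 0.553 FPKM (3 fragments). Hsp67Ba, an α-crystallin gene about which little is known, followed the larval pattern at lower levels, with 2.14 FPKM in PGAM5 null larvae with RU486, 11.2 FPKM in PGAM5 null larvae without it, 1.81 FPKM in WT larvae with RU486 and 9.40 FPKM in WT larvae without it. In adults it did not pass 0.910 FPKM, about 10 fragments, in any of the 4 libraries. Both genes lay between 1.67 and 4.02 FPKM in the thorax.

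The αB-crystallin-like gene l(2)efl was the leading member of the thorax. It stood at 539.5 FPKM with ΔOTC, 282 FPKM with ND75 RNAi and 290.1 FPKM in the thorax control, so ΔOTC alone was high. Larval fat body held 46.1 FPKM in PGAM5 null larvae with RU486, 80.6 FPKM in PGAM5 null larvae without it, 39.7 FPKM in WT larvae with RU486 and 125 FPKM in WT larvae without it. Adult fat body held 104 FPKM in PGAM5 null flies with RU486, 117 FPKM in PGAM5 null flies without it, 71.2 FPKM in WT flies with RU486 and 65.8 FPKM in WT flies without it. It was the member for which the adult WT library with RU486 did not stand out and both PGAM5 null libraries were the higher ones. Genes of the flight muscle list summed to 1113 FPKM in adult PGAM5 null flies with RU486 and 1208 FPKM without it. In adult WT flies the sums were 630.3 FPKM with RU486 and 552 FPKM without it. Of that list Act88F and fln did not pass 0.579 FPKM in these adult libraries, while Mlc2 stood at 87.9 to 212 FPKM. These sums therefore do not stand for flight muscle as such. At each treatment 8 of 8 genes of the list present were higher in PGAM5 null flies, and their part in the l(2)efl values was not tested.

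**Figure D1:**
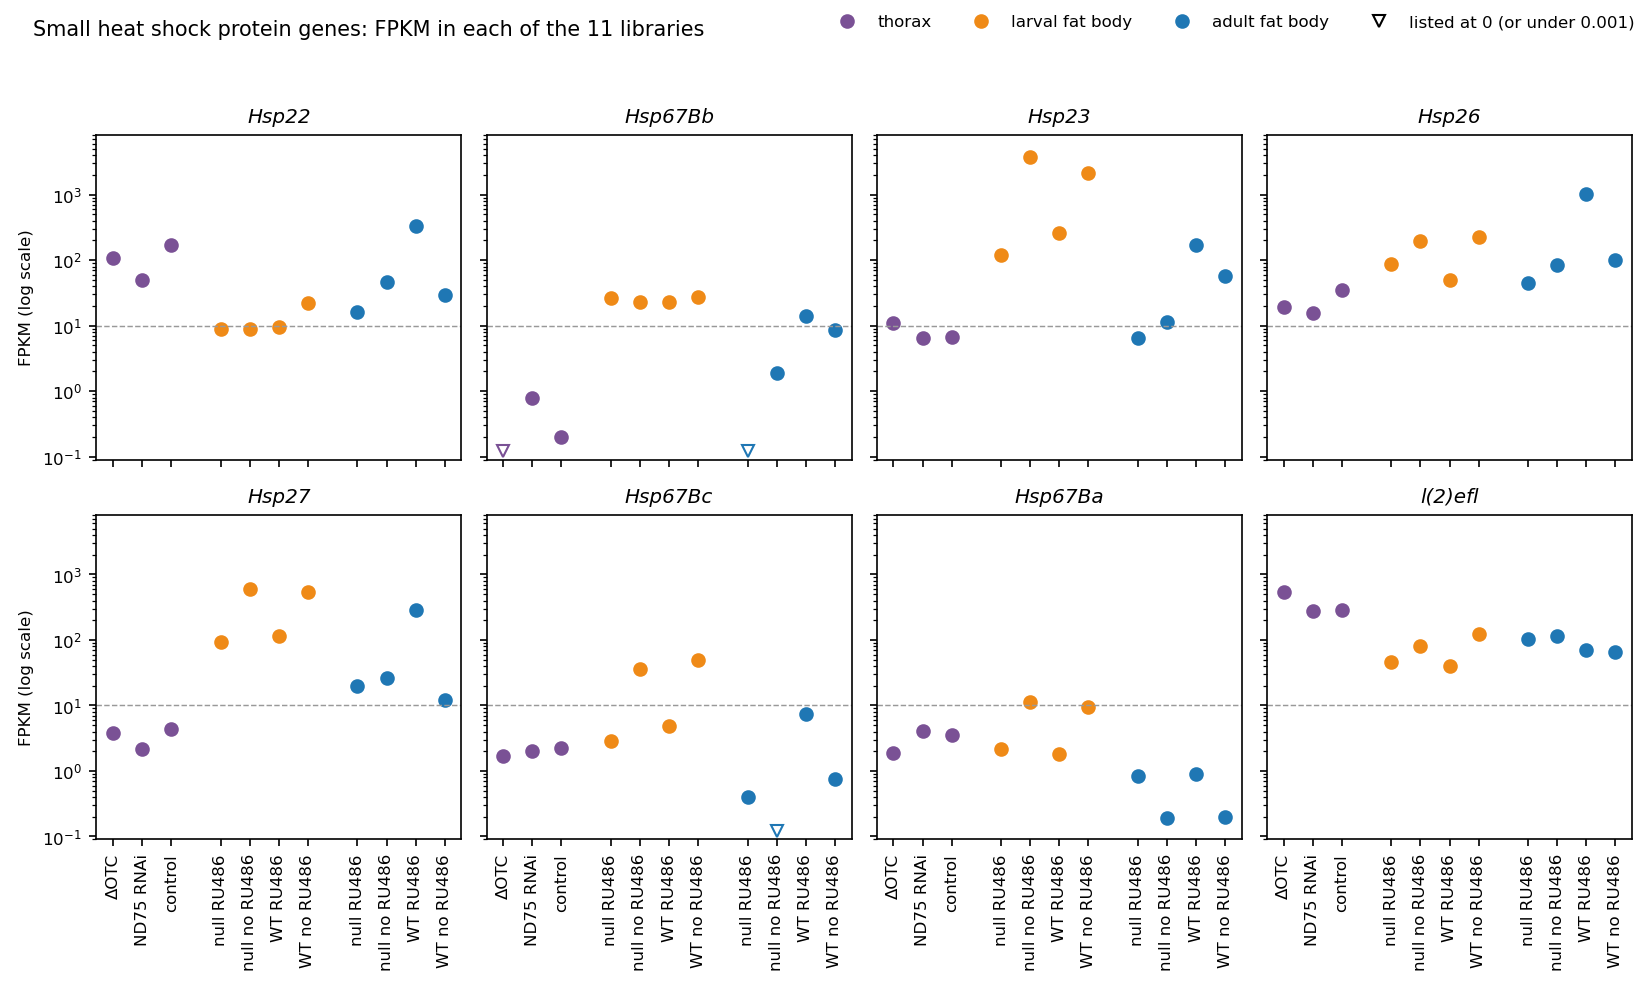
FPKM of each member (log axis) in the 11 libraries, 1 point per library, coloured by table, with PGAM5 null written as null; open triangles are values listed at 0 and the dashed line is 10 FPKM. Hsp23, Hsp27 and Hsp67Bc are high in both larval libraries without RU486, Hsp22, Hsp26 and Hsp27 are high in the adult WT library with RU486 (331, 1021 and 283 FPKM), and l(2)efl is highest in the ΔOTC thorax (539.5 FPKM).

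The comparisons follow the thresholds of the study's figure legends: genes with at least 10 FPKM in the second library of a ratio were tested, ratios from 3 upward count as induced and ratios from 0.5 downward as reduced. The first question was whether mitochondrial stress in the adult thorax moved these chaperones within 24 hr. With ΔOTC 0 of the 3 members tested were called in either direction, where 1.02% of all 4308 genes tested were induced and 6.66% reduced. With ΔOTC l(2)efl was at 1.86 times the control (95% interval 1.71 to 2.02). Hsp22 and Hsp26 were below the control, at ratios of 0.643 (0.570 to 0.723) and 0.554 (0.418 to 0.733), and the other 5 members were below 10 FPKM in the control. Hsp23, one of these, was 1.65 times the control with an interval of 0.970 to 2.85 that includes 1.

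With ND75 RNAi Hsp22 and Hsp26 again lay below the control, here past the threshold. Of the same 3 members 0 were induced and 2, Hsp22 and Hsp26, were reduced, where 0.255% of all genes tested were induced and 8.64% reduced. The Hsp22 ratio was 0.294 (0.240 to 0.356) and the Hsp26 ratio 0.450 (0.310 to 0.651). With the libraries scaled to the same upper quartile, Hsp26 came to 0.532 and was no longer called. For l(2)efl the ratio was 0.971 (0.869 to 1.09), so that the ND75 RNAi and control libraries did not differ beyond counting error in this gene. The median log2 ratio of FPKM + 1 over the 7 members present at 1 FPKM or more was -0.27 with ΔOTC and -0.09 with ND75 RNAi, beside 0.06 and -0.17 over all genes present. Each of these member medians is the value of Hsp67Bc, which rests on about 5 to 10 fragments a library. They therefore do not rank the 2 stresses. Both comparisons share the control library. Summed digestive enzyme transcripts of the gut stood at 299 FPKM with ΔOTC and 115.2 FPKM with ND75 RNAi, against 1824 FPKM in the control, and summed ovary and eggshell transcripts at 27.9 and 44.4 FPKM, against 317 FPKM. In each stressed library 9 or 10 of 11 gut genes and 11 of 13 ovary genes present were lower. The 11 flight muscle genes summed to 10132 FPKM with ΔOTC and 21210.5 FPKM with ND75 RNAi, against 12630 FPKM in the control. The part of these lists in the Hsp22 and Hsp26 values was not tested.

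In larval fat body, where the question was the acute response to ΔOTC, 6 of 8 members were lower with RU486 in PGAM5 null larvae and 8 of 8 in WT larvae. Most genes were lower there too, 7138 of the 10555 genes present at 1 FPKM or more in either PGAM5 null library and 8476 of 10753 in WT larvae. In PGAM5 null larvae 0 of the 7 members tested were induced and 5 were reduced, where 1.55% of all 4828 genes tested were induced and 17.5% reduced. Hsp23 was the most reduced member, at a ratio of 0.0320 (0.0286 to 0.0359), and ranked 138 from the lowest of the 4828. Hsp67Bc gave 0.0787 (0.0353 to 0.153), Hsp27 0.155 (0.139 to 0.173), Hsp67Ba 0.191 (0.0993 to 0.345) and Hsp26 0.447 (0.388 to 0.512). The l(2)efl ratio of 0.572 (0.449 to 0.720) was below 1 but not called, and Hsp22 and Hsp67Bb gave 1.01 (0.589 to 1.66) and 1.16 (0.652 to 1.94).

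In WT larvae 0 of the 7 members tested were induced and 6 were reduced, where 0.861% of all 5225 genes tested were induced and 30.5% reduced. Hsp67Bc had the lowest ratio of them, 0.10 (0.0685 to 0.144), followed by Hsp23 at 0.120 (0.114 to 0.127), Hsp27 at 0.219 (0.204 to 0.235), Hsp26 at 0.221 (0.195 to 0.25), l(2)efl at 0.317 (0.266 to 0.375) and Hsp22 at 0.438 (0.320 to 0.604). Hsp67Ba, just under the filter without RU486, gave 0.193 (0.118 to 0.302). Hsp67Bb gave 0.825 with an interval of 0.537 to 1.27 that includes 1. Among the 5225 genes Hsp67Bc ranked 242 and Hsp23 440 from the lowest ratio.

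The shift between larval libraries with and without RU486 depended on the scale used. The median gene at 10 FPKM or more in both libraries had a log2 ratio of -0.21 in PGAM5 null and -0.20 in WT larvae, and with the upper quartile as the scale these shifts were -0.33 and -0.62. With the FPKM sum without the 20 top genes as the scale they were -0.26 and -0.07. After division by the median ratio the log2 ratios of Hsp23, Hsp27 and Hsp67Bc were -4.76, -2.48 and -3.46 in PGAM5 null larvae and -2.85, -1.98 and -3.11 in WT larvae. On that scale Hsp26 in PGAM5 null larvae came to a ratio of 0.516 and Hsp22 in WT larvae to 0.505, and neither was called any longer. The median log2 ratio of FPKM + 1 over the 8 members was -1.56 in PGAM5 null and -2.02 in WT larvae, beside -0.26 and -0.50 over all genes present.

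Transcripts of other tissues and of the ecdysone response moved in the same libraries. The 9 glue and other salivary gland genes summed to 38384 FPKM with RU486 and 169150 FPKM without it in PGAM5 null larvae, and to 60621 FPKM with RU486 and 136019 FPKM without it in WT larvae, with 7 of 9 and 6 of 9 genes lower and 0 of 9 at 0 in any larval library. The glue gene Sgs3 alone stood at 4785 FPKM with RU486 and 12391 FPKM without it in PGAM5 null larvae, and at 6909 FPKM with RU486 and 13583 FPKM without it in WT larvae. Of the ecdysone response genes present, 13 of 13 were lower with RU486 in PGAM5 null and 12 of 14 in WT larvae. Their sums were 96.8 FPKM with RU486 and 332 FPKM without it in PGAM5 null larvae, and 152 FPKM with RU486 and 309 FPKM without it in WT larvae. The list includes br, an early ecdysone gene, at 17.2 FPKM with RU486 and 57.4 FPKM without it in PGAM5 null larvae, and at 25.3 FPKM with RU486 and 51.9 FPKM without it in WT larvae. Summed levels of the salivary gland and ecdysone lists thus differed between the same libraries as the members did. Testis and male transcripts summed to 304 FPKM with RU486 and 450.0 FPKM without it in PGAM5 null larvae, and to 88.2 FPKM with RU486 and 559 FPKM without it in WT larvae, with 7 of 8 and 8 of 8 genes present lower. The gut enzyme sum was 936 FPKM with RU486 and 9930.4 FPKM without it in PGAM5 null larvae, and 8773 FPKM with RU486 and 10578 FPKM without it in WT larvae. The part of tissue content or larval age in the lower member values was not tested.

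In adult fat body, after a larval treatment that had ended before adult life, the genotypes differed in direction. In PGAM5 null flies with RU486 0 of the 5 members tested were induced and 1, Hsp22, was reduced, where 0.399% of all 4506 genes tested were induced and 4.77% reduced. The Hsp22 ratio was 0.357 (0.274 to 0.463). Hsp26 at 0.537 (0.453 to 0.633), Hsp23 at 0.578 (0.354 to 0.954) and Hsp27 at 0.765 (0.603 to 0.961) lay below 1 without a call, and l(2)efl at 0.889 (0.769 to 1.02) was within counting error of it. The median log2 ratio of FPKM + 1 over the 6 members present was -0.79, beside 0.01 over all genes present.

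In WT flies with RU486 3 of the 5 members tested were induced and 0 were reduced, where 0.319% of all 5015 genes tested were induced and 9.01% reduced. Hsp27 was at 23.5 times the library without RU486 (18.8 to 29.6), Hsp22 at 11.1 times (9.47 to 13.3) and Hsp26 at 10.2 times (9.28 to 11.1). From the highest ratio downward these genes ranked 2, 9 and 10 of 5015. Hsp23, at 2.99 times (2.60 to 3.47), ranked 17 and lay just under the threshold. It was called induced when the libraries were scaled by the median ratio (3.04) or the upper quartile (3.49), and Hsp26 at 10.2 was the nearest member inside the threshold.

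The remaining members of WT adults were not called. Hsp67Bb was at 1.65 times (0.838 to 3.45), with 14.2 FPKM with RU486 and 8.63 FPKM without it, under the filter. Hsp67Bc was at 9.69 times with about 42 fragments in the library with RU486 and 4 in the one without, an interval of 3.50 to 37.1, but lay under the FPKM filter. Hsp67Ba gave 4.61 on 10 and 2 fragments (0.986 to 43.4). The l(2)efl ratio of 1.08 (0.908 to 1.29) had an interval that includes 1. The median log2 ratio of FPKM + 1 over the 7 members present was 2.25, beside -0.07 over all genes present. That median is the value of Hsp67Bc, which lay under the filter. The members next to it were Hsp26 at 3.33 and Hsp23 at 1.57. Higher with RU486 were 7 of 7 members present, beside 3690 of 8872 genes present.

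**Figure D2:**
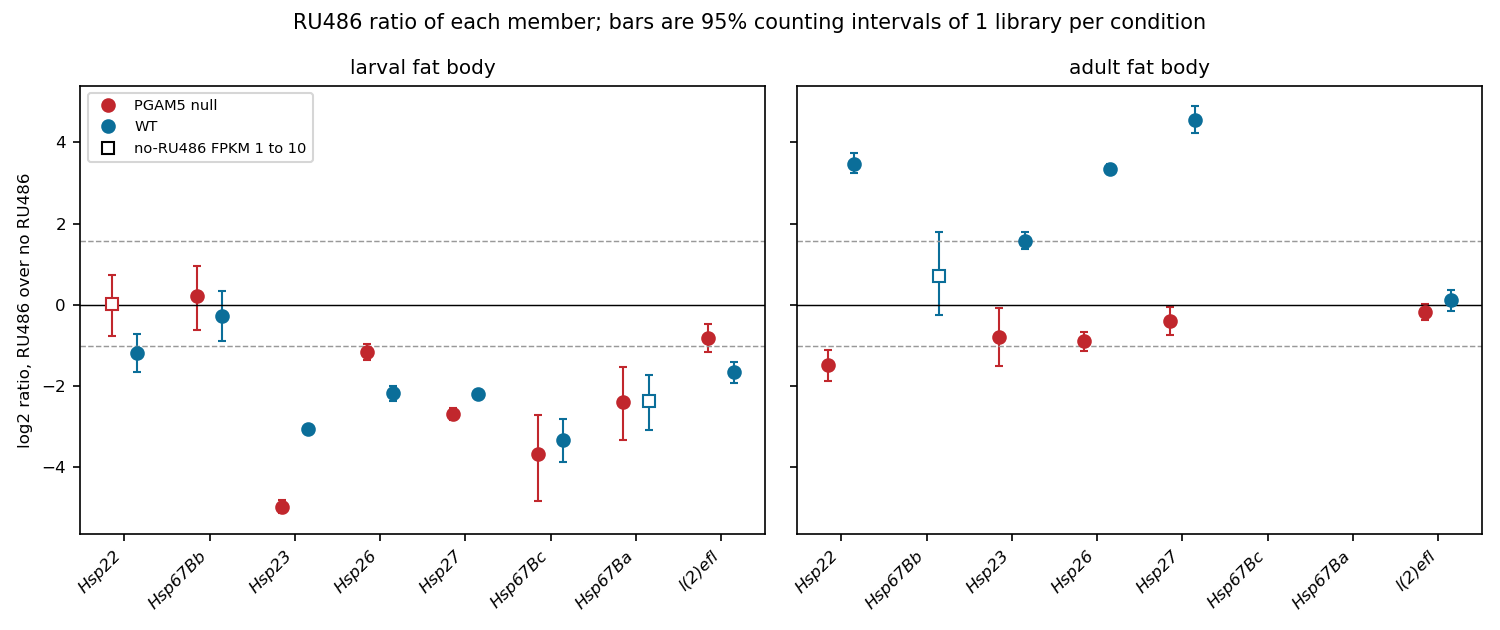
Log2 ratio of FPKM with RU486 over without it for each member in larval (left) and adult (right) fat body, PGAM5 null in red to the left of WT in blue; bars are 95% counting intervals, dashed lines mark a ratio of 3 and of 0.5, open squares have 1 to 10 FPKM without RU486, and members under 1 FPKM there or at 0 with RU486 are not drawn. In larvae both genotypes lie below 0 for Hsp23, Hsp26, Hsp27, Hsp67Bc and Hsp67Ba, while in adults Hsp22, Hsp26 and Hsp27 lie above the upper line in WT and below 0 in PGAM5 null flies.

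The difference between the genotypes in this response could not be tested with 1 library for each condition, and is given as a value. On the scale of log2 ratios of FPKM + 1, PGAM5 null minus WT in adults came to -4.87 for Hsp22, -4.81 for Hsp27, -4.21 for Hsp26 and -2.27 for Hsp23. For l(2)efl it came to -0.28 and for Hsp67Ba to -0.06. The median over the 8 members was -2.23 in adults and 0.20 in larvae. In larvae the differences had both signs, from -1.90 for Hsp23 to 1.12 for Hsp22.

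The adult libraries on which these ratios rest differed in tissue content as well. In PGAM5 null flies the ovary and eggshell genes summed to 5275 FPKM with RU486 and 129 FPKM without it, with 13 of 13 genes present higher, and the chorion gene Cp15 alone stood at 3683 FPKM with RU486 and 9.87 FPKM without it. The gut sum in PGAM5 null flies was 365 FPKM with RU486 and 74.3 FPKM without it. Gut enzyme transcripts in WT flies summed to 71.4 FPKM with RU486 and 7279 FPKM without it, with 11 of 11 genes lower with RU486. The WT library without RU486 was thus the adult library with the most gut transcripts. Larval fat body markers summed to 97.6 FPKM in WT flies with RU486 and 22.0 FPKM in WT flies without it, 5 of 5 genes present being higher. The yolk protein and other adult fat body markers summed to 113723 FPKM with RU486 and 74708 FPKM without it in PGAM5 null flies, and to 63037 FPKM with RU486 and 61474 FPKM without it in WT flies. Hemocyte markers summed to between 52.9 and 69.0 FPKM in the 4 libraries. The part of these lists in the adult member ratios was not tested.

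Set against WT at the same treatment, PGAM5 null animals without RU486 had 1 member called at each stage. Counting intervals of several other members excluded 1 as well. In larvae 0 of the 7 members tested were induced and 1, Hsp22, was reduced at a ratio of 0.408 (0.277 to 0.588), where 0.536% of all genes tested were induced and 5.09% reduced. Hsp23 was 1.71 times WT (1.66 to 1.75), and l(2)efl was at 0.643 (0.552 to 0.752). In adults without RU486 0 of the 5 members tested were induced and 1, Hsp23, was reduced at 0.197 (0.143 to 0.267), where 0.12% of all genes tested were induced and 14.9% reduced. Hsp27 at 2.15 (1.65 to 2.83), l(2)efl at 1.78 (1.51 to 2.09) and Hsp22 at 1.54 (1.26 to 1.90) were higher in PGAM5 null flies without reaching the threshold. The summed gut enzymes stood at 74.3 FPKM in these PGAM5 null flies and 7279 FPKM in the WT flies, with 11 of 11 genes lower, and their part in the Hsp23 value was not tested.

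With RU486 the median log2 ratio of FPKM + 1 between adult genotypes, PGAM5 null over WT, was -3.93 over the 7 members present, beside 0.01 over all genes present. That median is the value of Hsp67Bb, whose size depends on the pseudocount. The members next to it were Hsp22 at -4.26 and Hsp27 at -3.77. In adults 0 of the 6 members tested were induced and 5, Hsp22, Hsp23, Hsp26, Hsp27 and Hsp67Bb, were reduced in PGAM5 null flies, where 0.282% of all 4613 genes tested were induced and 7.74% reduced. The ratios were 0.0380 (0.0253 to 0.0566) for Hsp23, 0.0436 (0.0378 to 0.050) for Hsp26, 0.0494 (0.0389 to 0.0619) for Hsp22 and 0.0701 (0.0581 to 0.0839) for Hsp27. Hsp67Bb was listed at 0 in the PGAM5 null library, a ratio of 0 with an interval of 0 to 0.198. In the other direction l(2)efl was at 1.46 times WT (1.24 to 1.71). The ovary and eggshell sum stood at 5275 FPKM in PGAM5 null flies and 91.8 FPKM in WT flies, and its part was not tested. In larvae with RU486 0 of the 5 members tested were induced and 1, Hsp23, was reduced at 0.454 (0.401 to 0.514), where 1.78% of all 3643 genes tested were induced and 9.63% reduced, and Hsp26 was 1.74 times WT (1.48 to 2.05). These comparisons reuse the libraries of the RU486 ratios and are not separate evidence.

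The position of the genes on 3L allowed the members to be set beside their neighbours. In the release 6 annotation Hsp67Bc, Hsp67Bb, Hsp22, Hsp26, Hsp67Ba, Hsp23 and Hsp27 follow each other with the α-crystallin gene CG4461 between Hsp22 and Hsp26. In adult WT flies Hsp67Bc, Hsp22, Hsp26, Hsp23 and Hsp27 were higher with RU486, and CG4461, which lies among them, stood at 5.35 FPKM with RU486 and 4.01 FPKM without it. The gene CG4461 was at most 0.50 FPKM in larval fat body and at 679 to 1141 FPKM in thorax, where Hsp27 and Hsp23 were low. On the far side of Hsp67Bc, the genes Fdxh and CG4452 were at 12.3 and 24.6 FPKM in adult WT flies with RU486 and at 9.77 and 23.9 FPKM without it.

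At the other edge a non-coding gene moved with Hsp27. CR43482 begins 417 bases beyond the end of Hsp27 on the same strand, and stood at 6.56 FPKM in adult PGAM5 null flies with RU486, 8.16 FPKM in PGAM5 null flies without it, 114 FPKM in WT flies with RU486 and 4.33 FPKM in WT flies without it. The adult WT ratio was 26.3 (11.2 to 83.8), beside 23.5 for Hsp27. In larvae CR43482 stood at 45.5 FPKM in PGAM5 null larvae with RU486, 242 FPKM in PGAM5 null larvae without it, 55.4 FPKM in WT larvae with RU486 and 257 FPKM in WT larvae without it, ratios of 0.188 and 0.215 beside 0.155 and 0.219 for Hsp27. The next gene, CG4080, was at 7.80 FPKM with RU486 and 10.1 FPKM without it in adult WT flies. CR43482 was picked out after its values were seen. Reads of the 2 genes could not be examined, so transcription past the end of Hsp27 was not tested.

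Overlaps limit what 4 members can show. Hsp22 and Hsp67Bb overlap on the same strand over 2034 bases, so their separate FPKM depend on how Cufflinks shared out the reads, an error the counting intervals do not hold. Those intervals take the shortest annotated transcript of a gene, for Hsp67Bb 427 bases where its longest has 1900. A longer transcript would give more fragments and narrower intervals for Hsp67Bb, so whether they include 1 depends on that choice. Taken as 1 locus, their summed FPKM in WT larvae was 32.2 with RU486 and 49.2 without it, a ratio of 0.654 that would not be called reduced, while Hsp22 alone was. In adults the locus sum was 16.4 FPKM with RU486 and 47.8 FPKM without it in PGAM5 null flies (0.343), and 346 FPKM with RU486 and 38.4 FPKM without it in WT flies (9.01 times). The adult calls of Hsp22 therefore did not rest on the split. In PGAM5 null against WT larvae without RU486 the locus ratio was 0.641, and the reduced call of Hsp22 was lost. In PGAM5 null against WT adults with RU486 it was 0.0474, and 4 rather than 5 reduced calls remained. Hsp67Ba is crossed by the antisense gene CR43481 over 1375 bases and Hsp27 by CR43483 over 49 bases. Whether the counting used strand is not given in the sources used here, and CR43481 was at most 0.66 FPKM in any library.

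**Figure D3:**
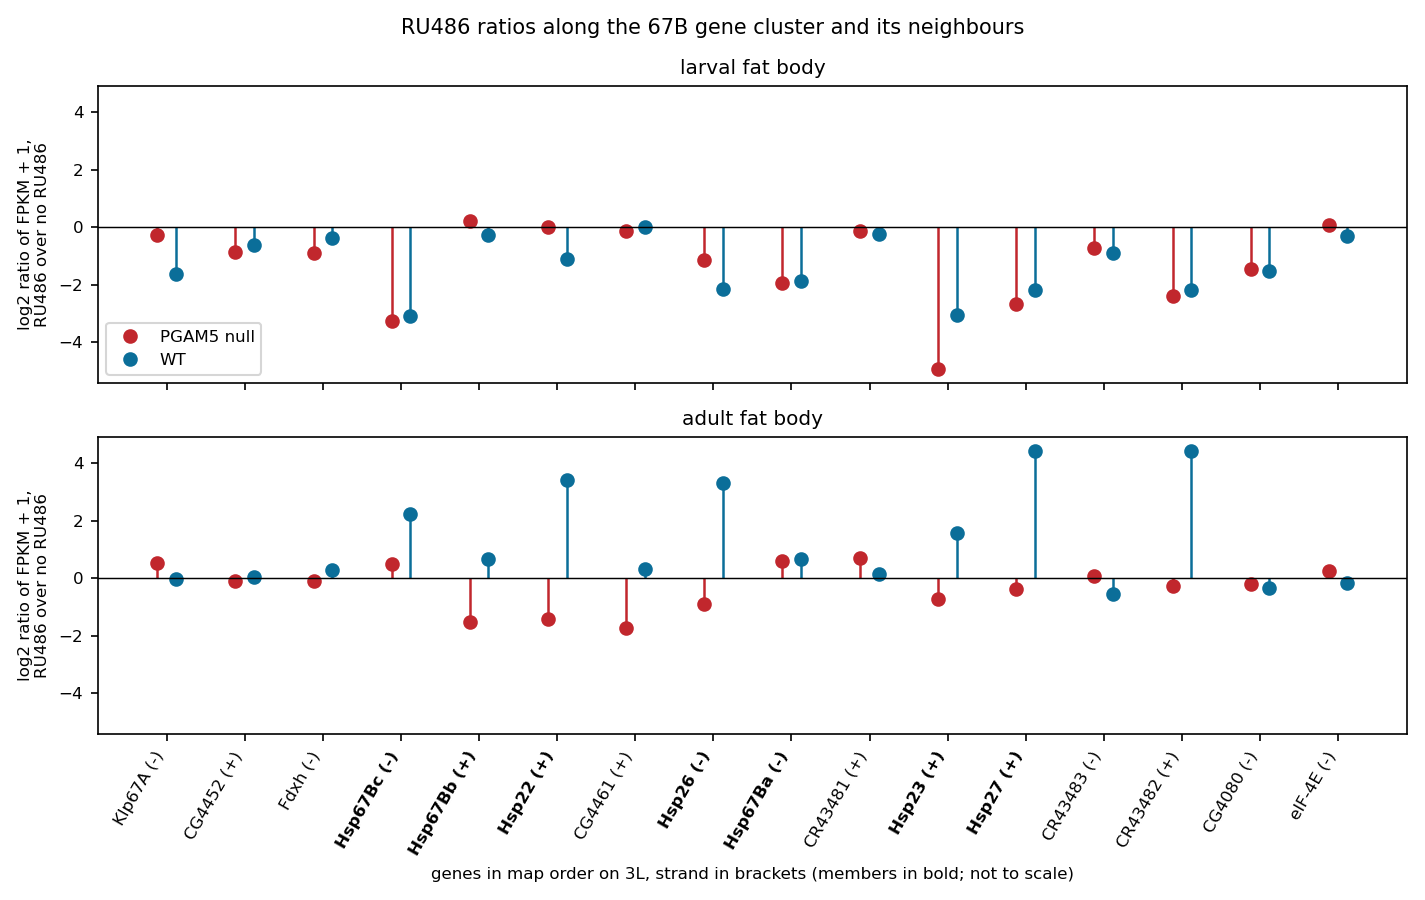
Log2 ratio of FPKM + 1, with RU486 over without it, for genes in map order along the 67B cluster on 3L and its neighbours (strand in brackets, members in bold, distances not to scale), larval fat body above and adult fat body below, PGAM5 null in red to the left of WT in blue. In adult WT flies Hsp67Bc, Hsp22, Hsp26, Hsp23, Hsp27 and CR43482 lie well above 0 while CG4461, CR43483 and CG4080 lie between -0.56 and 0.34.

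Other chaperones were counted from lists of related genes, to place the members in the wider heat shock response. The inducible Hsp70 genes and Hsp68 refold proteins handed on by small heat shock proteins. In adult PGAM5 null flies 7 of 7 of these genes were called reduced with RU486, and in adult WT flies 7 of 7 were called induced, with medians of -2.93 and 3.61 in log2 ratios of FPKM + 1, where 4.77% of all genes tested were reduced in PGAM5 null flies and 0.319% induced in WT flies. Hsp68 stood at 6.30 FPKM in PGAM5 null flies with RU486, 60.7 FPKM in PGAM5 null flies without it, 658 FPKM in WT flies with RU486 and 23.1 FPKM in WT flies without it. The most abundant Hsp70 copies, Hsp70Ab and Hsp70Aa, were at 513 and 501 FPKM in WT flies with RU486, against 38.8 and 37.9 FPKM in WT flies without it. These copies are nearly identical in sequence, so their values share reads, but Hsp68 is a separate gene.

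In larvae Hsp68 was the 1 gene of the group tested in each genotype, at 33.7 FPKM with RU486 and 33.2 FPKM without it in PGAM5 null larvae, and at 13.8 FPKM with RU486 and 40.6 FPKM without it in WT larvae, where it was called reduced, as 30.5% of all genes tested were. The Hsp70 copies lay at 0.581 to 2.65 FPKM in the larval libraries without RU486, too low for log2 ratios of FPKM + 1 to show a fall. The list medians of -0.22 in PGAM5 null and -0.34 in WT larvae can therefore not be set against those of the members. In WT larvae 5 of 7 genes of the group were lower with RU486 and 2 were higher. Hsp70Bb was 1 of these 2, at 6.90 FPKM with RU486 and 1.58 FPKM without it. In the thorax 7 of 7 genes of the group lay above the control with each stress at low levels, 107.5 FPKM in sum with ΔOTC and 109 FPKM with ND75 RNAi, against 23.1 FPKM in the control, while 0 of them reached 10 FPKM in the control. Hsp70Bb, the most abundant copy with either stress, stood at 33.5 FPKM with ΔOTC and 48.3 FPKM with ND75 RNAi, against 2.85 FPKM in the control.

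Among heat shock factor, Hsp90 and their partners, 3 of the 13 genes tested were reduced with RU486 in adult PGAM5 null flies and 3 of 13 were induced in adult WT flies, beside the same 4.77% and 0.319% of all genes tested. They were the same in both, namely DnaJ-1, stv and the non-coding heat shock gene Hsromega. The Hsp90 gene Hsp83 stood at 737 FPKM in PGAM5 null flies with RU486, 1129 FPKM in PGAM5 null flies without it, 2010 FPKM in WT flies with RU486 and 968 FPKM in WT flies without it. DnaJ-1, an Hsp40 co-chaperone, was at 65.8, 153, 312 and 91.1 FPKM in the same order of libraries. The gene stv, which encodes Starvin, the partner of Hsp67Bc, was at 20.2, 52.9, 177 and 35.4 FPKM. Hsp83 moved the same way without a call. In this group the constitutive Hsc70-4 was level, at 1896, 2128, 2014 and 2010.2 FPKM, and so was the gene of heat shock factor itself, Hsf, at 15.1, 15.7, 17.3 and 17.4 FPKM.

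The chaperones of the mitochondrion, where ΔOTC misfolds, stayed near their levels without RU486 in adults. With RU486 0 of the 9 mitochondrial genes tested were called in either direction in either genotype, and the medians were 0.07 in PGAM5 null and 0.09 in WT flies. Hsp60 was at 156, 129, 139 and 142 FPKM in PGAM5 null flies with RU486, PGAM5 null flies without it, WT flies with RU486 and WT flies without it. Hsc70-5, the matrix Hsp70, was at 94.0, 99.6, 124 and 108.5 FPKM. Hsp22 was thus the 1 matrix chaperone among these that was called in adults. In larvae 0 of 11 were reduced with RU486 in PGAM5 null and 2 of 11 in WT larvae, where 17.5% and 30.5% of all genes tested were reduced, and the reduced genes, Hsp60B and Hsp60C, were listed at 0 in the thorax and no higher than 0.0764 FPKM in adult fat body. In WT larvae they stood at 2.45 and 6.83 FPKM with RU486, against 24.6 and 58.2 FPKM without it. Testis and male transcripts summed to 88.2 and 559 FPKM in the same 2 libraries, and their part in these 2 calls was not tested. Larval Hsp60 was at 85.9 FPKM with RU486 and 46.3 FPKM without it in PGAM5 null larvae, and at 107 FPKM with RU486 and 71.3 FPKM without it in WT larvae. CG11267, the gene of its partner Hsp10, was at 159 FPKM with RU486 and 68.6 FPKM without it in PGAM5 null larvae, and at 166 FPKM with RU486 and 96.0 FPKM without it in WT larvae. Both genes were thus above their levels without RU486 in each genotype, under the threshold for a call.

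Of the 5 other α-crystallin genes, CG4461 and CG7409 were the abundant ones of the thorax and exceeded l(2)efl there per length. CG7409 stood at 698 FPKM with ΔOTC and 578 FPKM with ND75 RNAi, against 904 FPKM in the control, and neither it nor CG4461 was called. CG14207, an HspB8-like gene of muscle, stood at 373 FPKM with ΔOTC and 179 FPKM with ND75 RNAi, against 163 FPKM in the control, so that its ΔOTC ratio of 2.29 lay beside the 1.86 of l(2)efl, and both were near their controls with ND75 RNAi. CG14207 was also the most abundant of these genes in fat body, at 216 to 429 FPKM in larvae and 79.2 to 114 FPKM in adults. In adult PGAM5 null flies with RU486 2 of the 3 genes tested, CG4461 and CG7409, were reduced, with 5.66 and 18.6 FPKM, against 21.2 and 55.3 FPKM without RU486, where 4.77% of all genes tested were reduced. In the same libraries 7 of 8 genes present of the flight muscle list were lower with RU486, and 1 of the 6 tested was reduced. That gene, TpnC41C, was at 4.74 FPKM with RU486 and 16.2 FPKM without it. The list summed to 1113 FPKM with RU486 and 1208 FPKM without it, and its part in these values was not tested. CG43851 did not pass 11.5 FPKM in any library.

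**Figure D4:**
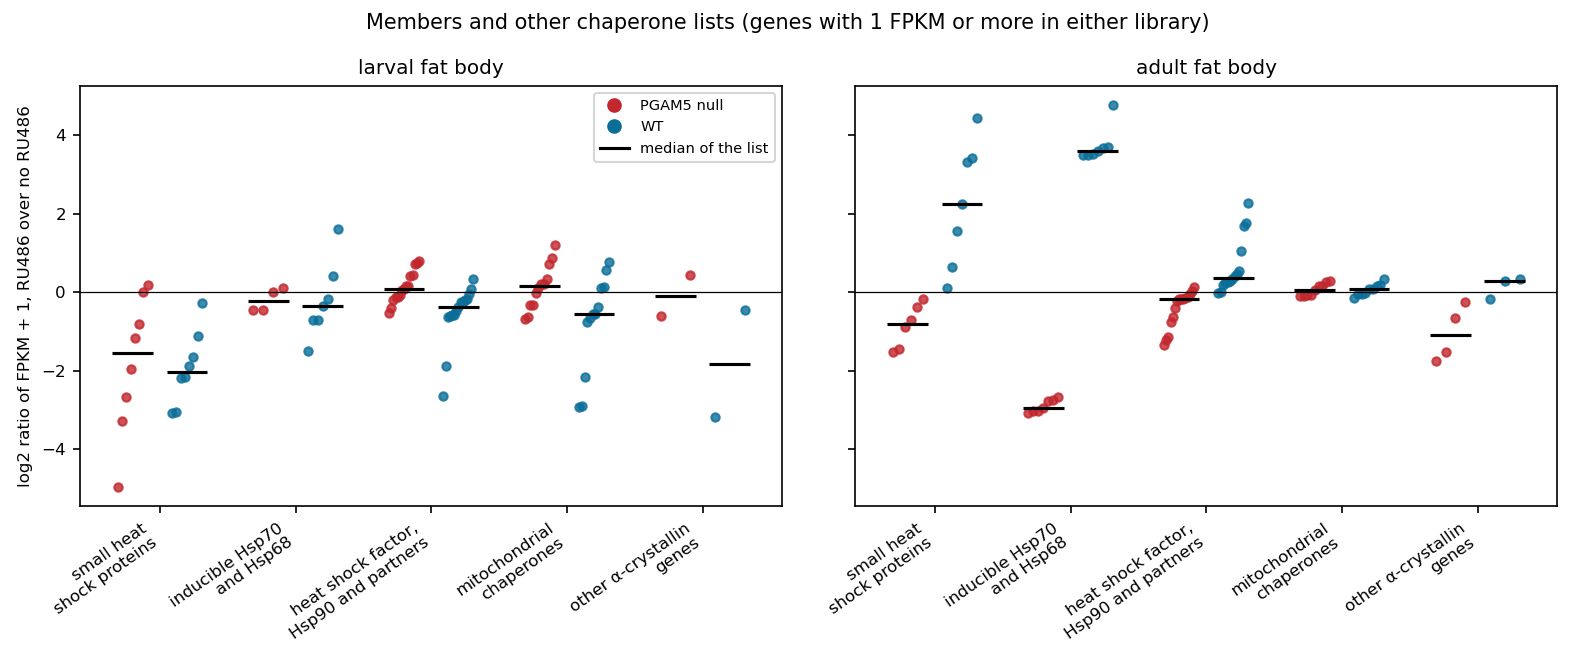
Log2 ratio of FPKM + 1, with RU486 over without it, for the members and 4 lists of other chaperones, with larval fat body on the left and adult fat body on the right, PGAM5 null in red to the left of WT in blue; each point is a gene that reached 1 FPKM in either library and black bars are list medians. In adults the medians of the members (-0.79 in PGAM5 null, 2.25 in WT) and of the Hsp70 group (-2.93 and 3.61) lie on opposite sides of 0 in the genotypes, while mitochondrial chaperones lie near 0; in larvae the members' medians are -1.56 and -2.02.

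A list of 11 FoxO targets was counted because the study concerns FoxO. The list holds no member, although l(2)efl is a known target and the paper names some of the persistently induced chaperones as FoxO targets. In adult WT flies with RU486 1 of the 10 tested, Obp99b, was induced and 1, Gadd45, was reduced, with a median of 0.11, where 0.319% of all genes tested were induced and 9.01% reduced. Obp99b stood at 56014 to 110366 FPKM in larval fat body. Larval fat body markers summed to 97.6 FPKM in adult WT flies with RU486 and 22.0 FPKM without it, and their part in the Obp99b value was not tested. The best known target, Thor, stood at 938 FPKM with RU486 and 792 FPKM without it in PGAM5 null flies, and at 476 FPKM with RU486 and 658 FPKM without it in WT flies. Pepck was at 1132 FPKM with RU486 and 1247 FPKM without it in PGAM5 null flies, and at 2332 FPKM with RU486 and 1659.7 FPKM without it in WT flies. In the thorax 9 of 11 were above the control with ΔOTC and 8 of 11 with ND75 RNAi, with medians of 0.79 and 0.13. Of the 8 tested 0 were induced with either stress, and 0 were reduced with ΔOTC and 1 with ND75 RNAi, where 1.02% and 0.255% of all genes tested were induced and 6.66% and 8.64% reduced. The 3 not tested were under 10 FPKM in the control. Gadd45, one of these, stood at 44.0 FPKM with ΔOTC, against 5.07 FPKM in the control, and Lip4, another, at 19.7 FPKM, against 4.0 FPKM. Thor stood at 2682 FPKM with ΔOTC and 1472 FPKM with ND75 RNAi, against 1129.9 FPKM in the control.

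In each table the 3 genes whose profile lay nearest to the mean profile of the members were taken, and none of them was on the chaperone lists. The distance grows with a difference in the size of a change. Chaperones further off than these 3 genes were not ranked, so the result does not set chaperones apart from the members. In adult fat body these were Obp99b (an odorant-binding protein gene), Pcp (a pupal cuticle gene) and Lcp4 (a larval cuticle gene), at root mean square distances of 0.10, 0.33 and 0.33 on the log2 scale of FPKM + 1 among 2274 genes, with Pearson r of 0.758, 0.960 and 0.744 over the 11 libraries centred within tables. Obp99b stood at 14.8 FPKM in PGAM5 null flies with RU486, 22.9 FPKM in PGAM5 null flies without it, 154 FPKM in WT flies with RU486 and 28.5 FPKM in WT flies without it. Pcp was at 0, 2.22, 10.9 and 2.25 FPKM in the same order of libraries, and Lcp4 at 0, 0, 5.24 and 0.437 FPKM, so both were low. Obp99b was far higher in larval fat body, at 56014 to 110366 FPKM, and the part of larval transcripts in these adult profiles was not tested. In larval fat body the nearest were CG11145, the purine synthesis gene ade3 and CG12655, at distances of 0.09, 0.10 and 0.11 among 5386 genes (r of 0.646, 0.642 and 0.747). There ade3 stood at 87.2 FPKM in PGAM5 null larvae with RU486, 300.0 FPKM in PGAM5 null larvae without it, 96.8 FPKM in WT larvae with RU486 and 307 FPKM in WT larvae without it. In the thorax the nearest were MED10, CG6650 and CG3570, each at 0.10 or 0.11 among 1970 genes (r of 0.506, 0.0916 and 0.0516). The points of a profile are libraries that differ in depth and tissue content, and these likenesses are descriptions.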

How the data were processed

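RNA of adult thorax and of larval and adult fat body (15 animals per sample, TruSeq libraries, MiSeq) was processed by the authors with the Tuxedo suite on genome release 5.2 (the submitters' processing notes name Bowtie, TopHat and Cufflinks, versions not given in the sources used here), and FPKM were deposited for 15603 genes in 3 tables, each scaled to its library total. FPKM were used as deposited. Samples were grouped by title. Fragment numbers were estimated from low FPKM values of genes with 1 annotated transcript in a release 6 annotation, of which 82.5% to 86.6% lay within 0.1 of a whole fragment; the procedure was tested on simulated data. Ratios, 10 comparisons in all, were called at 10 FPKM or more in the second library and a ratio of 3 or 0.5. List medians use a pseudocount of 1 FPKM and genes reaching 1 FPKM in either library. The members and lists were chosen with earlier results of these data known. Named were all 8 members, up to 4 genes of highest FPKM of each list and the 3 genes of nearest profile in each table (log2 range of at least 1). Outside that rule lie CR43482, stv, Hsromega, Hsf, Gadd45, Lip4, TpnC41C, ng1, ng2, ng3, Hsp60B and Hsp60C, the check genes and the cluster neighbours. These were chosen after their values were seen. Of the list symbols, 10 were not matched. Promoter motifs and protein identity were not analysed here. Alternatives varied the filter, the fold, the scaling, the pseudocount and the treatment of Hsp67Bb. Scripts ran under Python 3.11.15 with scipy 1.17.1, pandas 2.3.3 and numpy 2.4.6, and figures were drawn with matplotlib 3.10.9.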

Additional observations from a re-analysis of the deposited data

Results flagged for a closer look

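Some members had RU486 ratios whose counting intervals lay on opposite sides of 1 in the compared groups, with 10 FPKM or more without RU486 in each and a call in at least 1 of them. The differences below are of log2 ratios without a pseudocount. None of them was tested, since each condition has 1 library. Between adult genotypes, PGAM5 null minus WT, the difference was -4.97 for Hsp22 (ratios 0.357 and 11.1), -4.24 for Hsp26 (0.537 and 10.2) and -4.94 for Hsp27 (0.765 and 23.5). Between stages in WT animals, adult minus larval, it was 4.67 for Hsp22 (ratios 11.1 and 0.438), 4.64 for Hsp23 (2.99 and 0.120), 5.52 for Hsp26 (10.2 and 0.221) and 6.74 for Hsp27 (23.5 and 0.219). The stages come from separately normalised tables, and each ratio was taken within its table.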

How the results depend on the processing

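The number of members called stayed within 1.5 times in 81 of 90 alternative counts. With no FPKM filter it was 1 rather than 0 for ΔOTC over control in the thorax, 5 rather than 3 for RU486 in adult WT flies, 3 rather than 1 for RU486 in adult PGAM5 null flies and 3 rather than 1 for adult PGAM5 null over WT without RU486. With a filter of 1 FPKM the last 2 of these comparisons gave 2 each, and with a threshold of 2-fold upward adult PGAM5 null over WT without RU486 also gave 2. With upper quartile scaling 1 rather than 2 members were called for ND75 RNAi over control. With Hsp22 and Hsp67Bb as 1 locus, an alternative chosen after seeing the data, 0 rather than 1 were called for larval PGAM5 null over WT without RU486. In the added and low-filter counts the change comes from which genes or thresholds enter. Of 225 single log2 ratios under other scalings or a pseudocount of 1, 0 called ones changed sign and 24 left their counting interval. Of 30 list medians of the members, 28 stayed within the median counting interval. Leaving out a replicate was not possible, and no paired analysis was possible because each condition has 1 library. At 10 FPKM depth limits ratios of short transcripts most, and a ratio of 2 libraries cannot separate the condition from the dissection.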
